A study of Mus musculus with 96 samples.

Results

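Immature neuron genes are genes that neurons express strongly while they migrate and extend their first processes and mostly turn down afterwards. In adult mice, new neurons are made in the dentate gyrus of the hippocampus, where stem cells give rise to progenitors that divide and then pass through an immature stage before they become granule neurons. This production is known to decline strongly with age, and transcripts of its immature stage are commonly read as its markers, although mature neurons and glia can express several of them. The 8 genes described here, Dcx, Igfbpl1, Sox11, Sox4, Tubb2b, Neurod1, Dpysl3 and Stmn1, were chosen by name as genes of immature neurons, out of 35486 gene symbols in the count table, and 7 of the 8 had enough counts to be tested. Sox4 and Sox11 were lower in the hippocampus and cortex of older mice, though the hippocampus calls were lost without its libraries of low regional markers. None of the 7 passed the test between young plasma and PBS in any region, and 3 of the 8 had their highest level outside the hippocampus.

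The genes were measured by bulk mRNA sequencing of the cerebellum, cortex and hippocampus of male C57BL/6J mice, in 96 libraries from 38 animals. In experiment 1, all 3 regions came from the same 29 mice. Of these, 5 received young plasma and 4 received PBS, the saline vehicle, on 7 consecutive days at 18 months, and 3 received young plasma and 3 received PBS on 7 days at 22 months. A further 3 received young plasma and 4 received PBS on 24 days at 19 months, 3 were naive (not injected) at 18 months, and 4 were naive young mice. The young mice are labelled 2 months, whereas the text on the series gives 3 months, and the label is used here. Experiment 2 holds the hippocampus of 9 more mice of 18 months, 5 with young plasma and 4 with PBS on 7 days. All groups are of 1 strain and 1 sex.

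The libraries held 851288 to 23768385 counts each (median 8889509), and 7 libraries had fewer than 2500000 counts. In 7 libraries the score of neuron markers of the labelled region was unusually low, by over 3 median absolute deviations for its region. They were 4 hippocampus and 3 cortex libraries. The 4 hippocampus libraries were replicates 14 and 20 of the young mice, replicate 24 of the mice with 24 days of PBS and replicate 23 of those with 24 days of plasma. Their levels of Prox1, a transcription factor of dentate granule neurons, were 17.2, 29.2, 22.2 and 25.0 CPM (counts divided by the library total, times 1000000) in that order, against 44.4 to 108 CPM in the other 25 hippocampus libraries of experiment 1. Of the 4 young hippocampus libraries, 2 therefore stood apart from the others of their region. A second number in the sample titles of experiment 1 follows the groups. The young mice, the naive 18-month mice, the mice with 24 days of plasma and those with 24 days of PBS each hold a number of their own, so whatever it stands for cannot be told apart from age, from PBS against no injection or from 24 days of plasma. The plasma and PBS groups with 7 days of injection share a number in some of their mice, at 18 and at 22 months. In bulk tissue, fewer cells of a type and less RNA per cell cannot be told apart.

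Dcx (GRCm38 chromosome X, 143855842 to 143933311, minus strand) encodes doublecortin, a microtubule-associated protein of migrating neuroblasts and immature neurons. Stmn1 (chromosome 4, 134468320 to 134473843, plus strand) encodes stathmin, which destabilises microtubules, and Tubb2b (chromosome 13, 34126748 to 34130466, minus strand) encodes a beta-tubulin of developing neurons. Dpysl3 (chromosome 18, 43320984 to 43438286, minus strand) encodes a collapsin response mediator protein of growing axons. Sox11 (chromosome 12, 27334264 to 27342574, minus strand) and Sox4 (chromosome 13, 28948919 to 28953713, minus strand) encode the SoxC transcription factors that drive the neuronal programme in newborn neurons. Neurod1 (chromosome 2, 79452521 to 79456751, minus strand) encodes a basic helix-loop-helix factor needed for granule neurons of the dentate gyrus and cerebellum. Igfbpl1 (chromosome 4, 45809468 to 45826923, minus strand) encodes a secreted protein related to the insulin-like growth factor binding proteins and marks immature granule neurons in single-cell data of the mouse dentate gyrus. All 8 are annotated as protein coding. Strand was not recorded, so reads of an overlapping antisense gene would be counted with them, and how reads shared by near-identical genes such as Tubb2b and Tubb2a were counted is not given in the sources used here.

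The levels of the 8 genes differed widely within the hippocampus. On the scale of CPM per kilobase of annotated exon, the mean level over the 29 hippocampus libraries of experiment 1 was 136 for Stmn1, 33.3 for Tubb2b, 9.59 for Neurod1, 6.74 for Sox11, 5.92 for Dpysl3, 3.84 for Sox4, 1.28 for Dcx and 0.083 for Igfbpl1. Neighbours in the order from Neurod1 down to Dcx overlapped in their ranges, Dcx and Sox4 only at their edges, while Stmn1, Tubb2b and Igfbpl1 did not overlap with their neighbours. The exon length of Dcx joins several alternative exons and is long, 12.647 kb, which lowers its value on this scale. The cortex had the same order except that Sox4 stood above Dpysl3. In the cerebellum Neurod1 stood first, at 182 CPM per kilobase, and Stmn1 second, at 98.5.

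**Figure D1:**
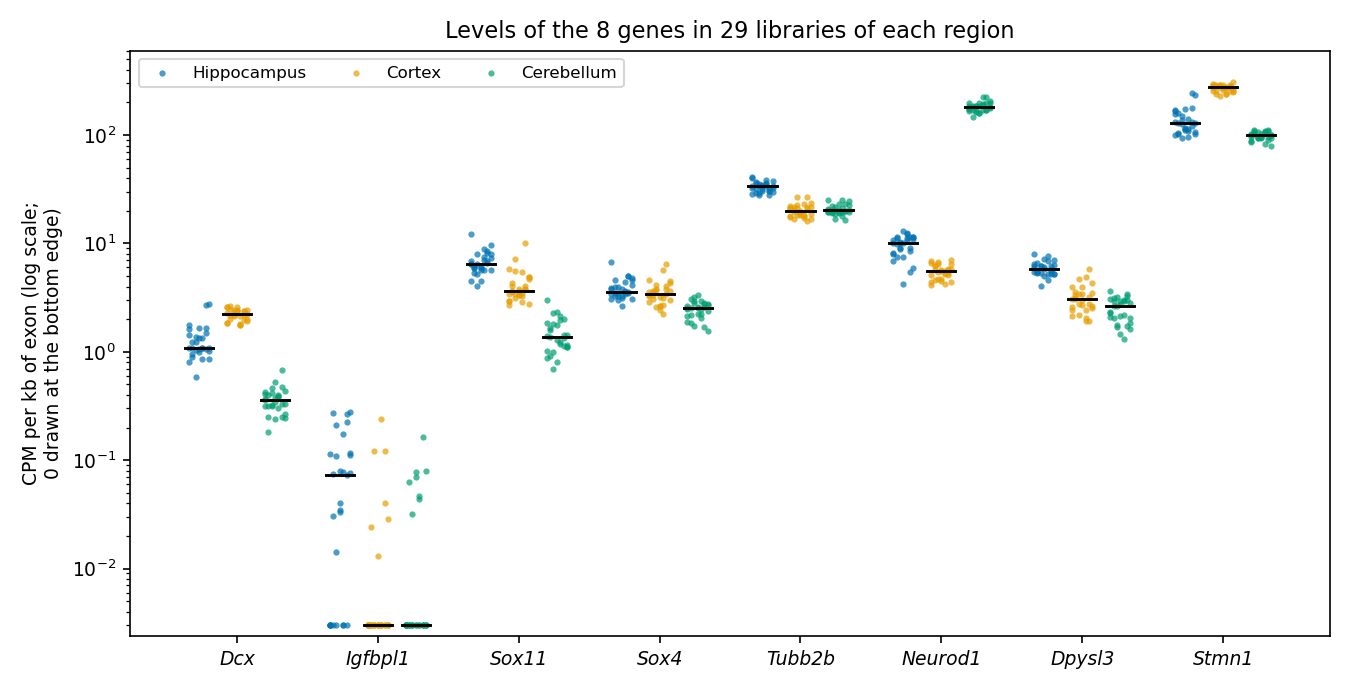
Level of each of the 8 genes in each library of experiment 1, in CPM per kilobase of exon on a log scale, for the hippocampus, cortex and cerebellum (29 libraries each). Points are libraries, black lines are medians, and a value of 0 is drawn at the bottom edge. Dcx and Stmn1 lie highest in the cortex and Neurod1 in the cerebellum, and most cortex and cerebellum libraries have no Igfbpl1 count.

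Dcx was lower in the hippocampus than in the cortex. Dcx ranged from 7.43 to 34.7 CPM in the hippocampus, with a median of 13.8, against 22.4 to 33.3 CPM in the cortex, with a median of 28.2 (29 libraries each). Only the highest hippocampus libraries reached the cortex range. Averaged over the 8 groups of mice, Dcx was 1.78-fold lower in the hippocampus than in the cortex, a log2 fold change of -0.83 ± 0.080 (SE) with an adjusted p of 1.16e-14 in edgeR's quasi-likelihood test. Stmn1 was 2.02-fold lower. It averaged 262 ± 71.8 CPM over hippocampus libraries and 520 ± 38.9 CPM over cortex libraries (SD, n = 29 each).

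A further 4 members were higher in the hippocampus than in the cortex. They were Dpysl3 (1.89-fold), Neurod1 (1.70-fold), Tubb2b (1.63-fold) and Sox11 (1.57-fold), and the largest of their adjusted p values was 6.41e-10 in edgeR. Sox4 did not pass. It averaged 18.4 ± 3.98 CPM over hippocampus libraries and 17.1 ± 4.44 CPM over cortex libraries (SD, n = 29 each), a log2 fold change of 0.10 ± 0.060 with an adjusted p of 0.15. Of the 7 members tested, 6 thus differed between these regions, where 60.3% of all genes tested did, so the share among the members is near that of the table. In the young mice alone, with 4 libraries per region, 4 members passed in edgeR, where 12.5% of all genes did. Tubb2b (log2 fold change 0.67 ± 0.097), Neurod1 (0.88 ± 0.199) and Dpysl3 (0.50 ± 0.171) were higher in the young hippocampus and Stmn1 (-0.74 ± 0.161) was lower. The Dpysl3 call rested on an adjusted p of 0.043 and was lost with the mouse as a replicate block, at 0.053, and with no filter on low counts, at 0.056. It was also lost without young mouse 12 (adjusted p = 0.23), 17 (0.26) or 20 (0.25). Neurod1 had 0.60 with an adjusted p of 0.14 without young mouse 12. Dcx in the young mice missed the threshold, with a log2 fold change of -0.33 ± 0.210 and an adjusted p of 0.36. Without the libraries of low regional markers it was -0.84 with an adjusted p of 0.0016. Sox11 also passed then, at 0.63 ± 0.233 (adjusted p = 0.040), and Tubb2b, Neurod1, Dpysl3 and Stmn1 passed in the same directions.

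Neurod1 separated the cerebellum from both forebrain regions. Its level was 11.5 to 35.5 CPM in the hippocampus, against 404 to 609 CPM in the cerebellum, and the 2 ranges lay far apart. The fitted difference was 17.3-fold, a log2 fold change of -4.11 ± 0.069 with an adjusted p of 1.51e-59 in edgeR. The other 6 members tested were higher in the hippocampus. Sox11 was 4.91-fold higher, Dcx 3.82-fold, Dpysl3 2.65-fold, Tubb2b 1.79-fold, Sox4 1.70-fold and Stmn1 1.52-fold, and the largest adjusted p among them was 2.23e-14. All 7 members tested differed between hippocampus and cerebellum, where 84.1% of all genes tested did. In the young mice all 7 also passed in edgeR, in the same directions, where 59.2% of all genes did. Without the libraries of low regional markers, Stmn1 in the young mice no longer passed, with a log2 fold change of 0.28 ± 0.137 and an adjusted p of 0.073, and the other 6 did. Eomes, a factor of neuronal progenitors in the forebrain and of unipolar brush cells in the cerebellum, averaged 0.232 ± 0.511 CPM in the hippocampus, with a count in 13 of 29 libraries, and 21.4 ± 8.97 CPM in the cerebellum (SD, n = 29 each).

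Igfbpl1 stayed near the limit of detection and was too low to pass the filter on low counts in any region. In the hippocampus of experiment 1 it had 93 counts over 29 libraries, with a count in 20 of them and no more than 19 in any one. This is 0.316 CPM of the pooled counts, against 0.0825 CPM from 25 counts in the cortex, where 7 of 29 libraries had a count, and 0.114 CPM from 24 counts in the cerebellum, where 8 of 29 did. In experiment 2, 6 of 9 hippocampus libraries had a count and the pooled level was 0.814 CPM. The 25 older hippocampus libraries averaged 0.245 ± 0.280 CPM and the 4 young ones 0.425 ± 0.391 CPM (SD), and the groups overlapped, with p = 0.28 in a two-sided exact permutation test. Without the 4 libraries of low regional markers, the 23 older ones averaged 0.251 ± 0.291 CPM and the 2 young ones 0.732 ± 0.234 CPM (SD), with p = 0.067 in the same exact test. In the cortex, the older libraries had 10 counts in 5 of 25 libraries and the young ones had 15 counts in 2 of 4. With no filter on low counts, edgeR gave an adjusted p of 0.013 for Igfbpl1 between older and young cortex, which rests on these 25 counts.

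Sox11 and Sox4 were the members that differed between older and young mice in both the hippocampus and the cortex. For this comparison the mean of the 7 groups of 18 to 22 months, plasma and PBS groups included, was set against the naive young group in each region. Because these 2 genes were called in both regions with every library included, the sequence upstream of each is shown, from RefSeq with the build GRCm38.p6. The Sox11 window, chr12:27342719-27342968 on the minus strand, is the 250 bases before the RefSeq start site, and the Sox4 window, chr13:28953714-28953949 on the minus strand, is the 236 bases before the annotated start sites. Capitals mark CAGCTG, an E-box that reads the same on both strands, and the CCAAT box on either strand, written CCAAT or ATTGG.
Sox11: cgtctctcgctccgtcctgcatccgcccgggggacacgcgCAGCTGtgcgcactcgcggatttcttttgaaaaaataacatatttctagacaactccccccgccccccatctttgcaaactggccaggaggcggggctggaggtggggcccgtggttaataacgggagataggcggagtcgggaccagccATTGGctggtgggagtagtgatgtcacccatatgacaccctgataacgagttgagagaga
Sox4: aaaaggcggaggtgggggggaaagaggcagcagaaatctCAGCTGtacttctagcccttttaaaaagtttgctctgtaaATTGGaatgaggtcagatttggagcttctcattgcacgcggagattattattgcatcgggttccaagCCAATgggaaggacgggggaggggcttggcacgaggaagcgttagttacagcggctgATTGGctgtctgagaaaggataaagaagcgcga
Each window held 1 CAGCTG, which 13.0% of all 32841 windows of the mouse table hold. Sox11 held 1 CCAAT box and Sox4 held 3, and 33.9% of all windows hold at least 1. The marked motifs did not overlap. The other motifs searched on both strands, the SOX cores ACAAAG and ACAATG, the E-box CATCTG and the TATA box TATAAA, were in neither window and occur in 16.5%, 10.7%, 14.4% and 12.4% of all windows in that order. The CCAAT box was added to the search after the sequences had been read. The GC content was 58% for Sox11 and 50% for Sox4, against a median of 52.4% over all windows. RefSeq windows were matched for 4 of the 8 members.

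In the hippocampus, Sox11 was at 33.9 to 80.0 CPM in the 25 older libraries, with a median of 51.9, against 73.7, 70.3, 66.1 and 101 CPM in the 4 young ones. All but 2 of the older libraries lay below the lowest young library, and the older library at 80.0 CPM was the one of low dentate markers that had 24 days of PBS. Sox11 fell, with a log2 fold change of -0.58 ± 0.115 and an adjusted p of 0.013 in edgeR. Sox4 was at 12.7 to 23.8 CPM in the older libraries, with a median of 16.7, against 20.9, 23.8, 23.2 and 32.5 CPM in the young ones. Most older libraries lay below the young range and 3 reached into it. Sox4 fell 1.43-fold, with a log2 fold change of -0.52 ± 0.114 and an adjusted p of 0.028. These were 2 of the 7 members tested, against 0.791% of all 18070 genes tested, 0.465% lower and 0.327% higher. All 7 members had a value below 0, with a median of -0.26 on the log2 scale, where the median of all genes was -0.00.

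Both calls in the hippocampus were lost without its 4 libraries of low regional markers, 2 of them young. Sox11 then had a log2 fold change of -0.47 ± 0.124 with an adjusted p of 0.21 and Sox4 had -0.41 ± 0.139 with an adjusted p of 0.49, with 2 young libraries left. The direction was kept. Of all genes tested, 19 passed then, against 143 with every library. Without young replicate 14 alone the adjusted p was 0.054 for Sox11 and 0.16 for Sox4, and without young replicate 20, which also had only 1816018 counts, it was 0.073 for Sox11 and 0.11 for Sox4. The Sox4 call was also lost with limma-voom (adjusted p = 0.064), with the dentate marker score as a covariate (0.056) and with a cortical neuron score as a covariate (0.066), an alternative chosen after seeing the data. The Sox11 call held in these 3, with adjusted p values of 0.012, 0.024 and 0.022 in that order.

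**Figure D2:**
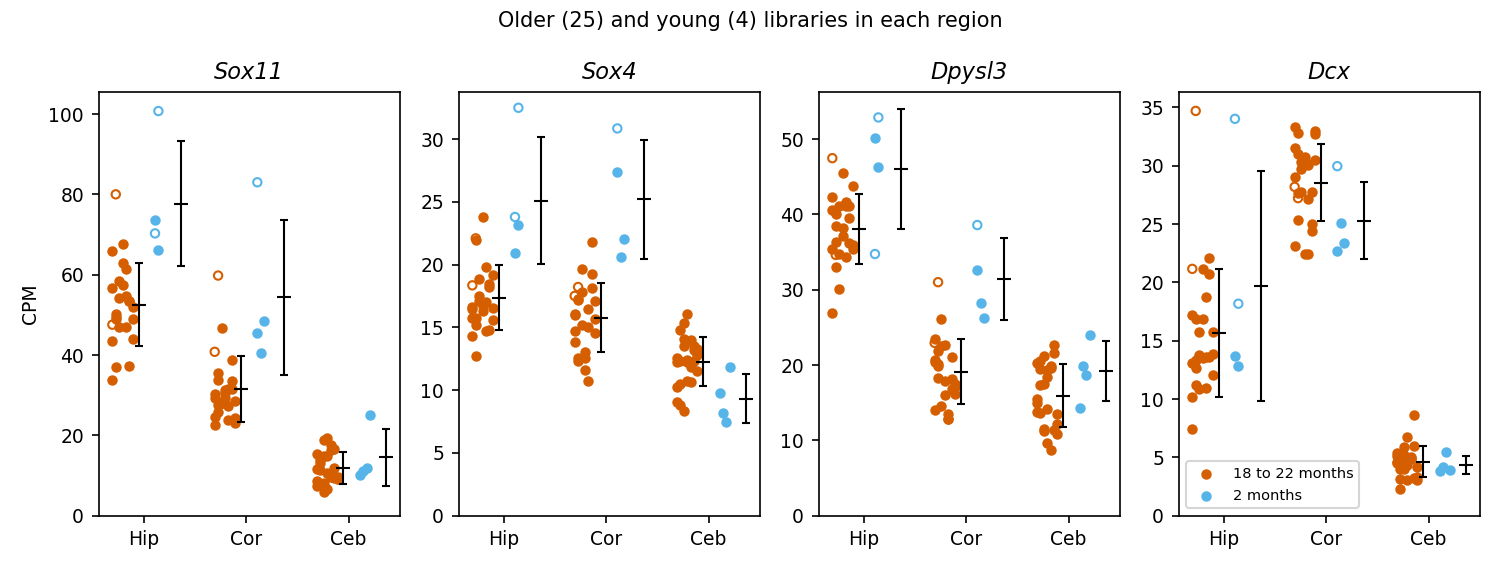
CPM of Sox11, Sox4, Dpysl3 and Dcx in the hippocampus (Hip), cortex (Cor) and cerebellum (Ceb) of experiment 1, with the 25 older libraries left of the 4 young ones in each region. Points are libraries, open points are libraries of low own-region markers, and bars are mean ± SD. Sox11 and Sox4 lie lower in the older hippocampus and cortex, and Dcx overlaps between the ages in each region.

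In the cortex, Sox11, Sox4 and Dpysl3 fell with age. Dpysl3 was at 12.8 to 31.0 CPM in the older libraries, with a median of 18.3, against 32.6, 38.6, 28.3 and 26.2 CPM in the young ones, and only the highest older library reached the young range. Its log2 fold change was -0.74 ± 0.126 with an adjusted p of 0.0013 in edgeR. Sox4 was at 10.7 to 21.8 CPM in the older cortex, with a median of 16.0, against 27.3, 30.8, 20.6 and 22.1 CPM in the young cortex. Its log2 fold change was -0.73 ± 0.126 with an adjusted p of 0.0014. Sox11 was at 22.6 to 59.8 CPM in the older cortex, with a median of 29.3, against 45.4, 83.0, 40.6 and 48.5 CPM in the young cortex, and the groups overlapped in their tails. Its log2 fold change was -0.81 ± 0.168 with an adjusted p of 0.0074. These 3 of 7 members compare with 2.47% of all 18769 genes tested in the cortex, 1.42% lower and 1.05% higher.

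The 3 calls in the cortex held without its 3 libraries of low regional markers, with log2 fold changes of -0.67 for Dpysl3, -0.65 for Sox4 and -0.59 for Sox11 and a largest adjusted p of 0.017. Without young replicate 14 alone, Sox11 had -0.52 with an adjusted p of 0.18. The change with age did not differ between hippocampus and cortex past the threshold for any of the 7 members in edgeR, where 0.251% of all genes did. For that difference 2 members, Dpysl3 and Dcx, had an unadjusted p under 0.05, at 0.012 and 0.014, where 9.12% of all genes had one. DESeq2 and limma-voom also called none of the 7. The difference in change for Sox4 was 0.21 ± 0.166 and for Sox11 0.23 ± 0.239 on the log2 scale.

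In the cerebellum, Neurod1 and Tubb2b fell with age. Neurod1 was at 404 to 543 CPM in the older cerebellum, with a median of 482, against 607, 609, 565 and 502 CPM in the young cerebellum, and 3 of the 4 young libraries lay above all older ones. Neurod1 fell 1.22-fold, with a log2 fold change of -0.28 ± 0.052 and an adjusted p of 3.36e-04 in edgeR. Tubb2b fell 1.23-fold, with a log2 fold change of -0.30 ± 0.063 and an adjusted p of 0.0018, at 45.9 ± 4.04 CPM in the older (n = 25) and 54.9 ± 3.38 CPM in the young cerebellum (SD, n = 4). These 2 of 7 members compare with 9.37% of all genes tested there, 4.89% lower and 4.47% higher. Sox4 had a value of the opposite sign, 0.33 ± 0.120, with an adjusted p of 0.077. Its level was 8.38 to 16.1 CPM in the older cerebellum, with a median of 12.3, against 9.79, 8.20, 7.42 and 11.9 CPM in the young cerebellum.

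The change of Sox4 with age thus differed between the hippocampus and the cerebellum. The difference was -0.84 ± 0.190 on the log2 scale with an adjusted p of 0.011 in edgeR, and -0.88 with an adjusted p of 0.0029 with the mouse as a replicate block. The difference did not pass for Neurod1 (0.22 ± 0.185, adjusted p = 0.69) or Tubb2b (0.11 ± 0.108, adjusted p = 0.76), and Sox4 was the only one of the 7 members to pass, where 0.995% of all genes did. Without the libraries of low regional markers the difference was -0.74 with an adjusted p of 0.076, and without young mouse 14 it was -0.78 with an adjusted p of 0.12.

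Dcx did not pass the age test in any region. In the hippocampus it was at 7.43 to 34.7 CPM in the older libraries, with a median of 13.8, against 13.7, 34.0, 12.8 and 18.2 CPM in the young ones, and the groups overlapped throughout. The log2 fold change was -0.41 ± 0.215 with an adjusted p of 0.43 in edgeR. Without the 4 libraries of low regional markers it was 0.12 ± 0.204, the opposite sign, with an adjusted p of 0.96. The 2 young hippocampus libraries with ordinary dentate markers held 13.7 and 12.8 CPM, within the range of the older libraries. In the cortex Dcx had a log2 fold change of 0.15 ± 0.089 (adjusted p = 0.41) and in the cerebellum of 0.08 ± 0.208 (adjusted p = 0.90). Stmn1 in the hippocampus likewise had opposite signs, -0.24 ± 0.179 over all libraries and 0.29 ± 0.165 without those of low markers, and passed in neither.

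The naive mice alone gave values below 0 for all 7 members in the hippocampus, with fewer animals. Dcx was at 10.2, 11.2 and 15.7 CPM in the 3 naive 18-month hippocampi, against 13.7, 34.0, 12.8 and 18.2 CPM in the 4 young ones. Sox11 was at 56.7, 49.1 and 54.2 CPM in the naive 18-month hippocampi, against 73.7, 70.3, 66.1 and 101 CPM in the young ones, and these groups did not overlap. The log2 fold change was -0.67 ± 0.331 for Dcx (adjusted p = 0.79) and -0.54 ± 0.173 for Sox11 (adjusted p = 0.51). Without the libraries of low regional markers they were -0.06 ± 0.263 for Dcx and -0.43 ± 0.165 for Sox11, Stmn1 had the opposite sign, 0.48 ± 0.202, and none of the 7 passed. With every library, none of the 7 members passed in edgeR, DESeq2 or limma-voom, against 0.0719% of all genes in edgeR. An unadjusted p under 0.05 was held by 3 of the 7 (Sox11, Sox4 and Tubb2b) and by 6.39% of all genes. In the cortex 3 members (Dpysl3, Sox11 and Sox4) had an unadjusted p under 0.05, where 6.18% of all genes had one. None passed in edgeR, DESeq2 or limma-voom, where 0.112% of all genes did in edgeR. In the cerebellum 2 members (Neurod1 and Tubb2b) had an unadjusted p under 0.05, where 15% of all genes had one. None passed in edgeR, where 2.39% of all genes did. There DESeq2 called 1 member and 347 of all 17185 genes, and limma-voom called 2 members and 678 of all genes. The difference in this naive age change between hippocampus and cerebellum passed for no member in edgeR, DESeq2 or limma-voom, where 0.0513% of all genes passed in edgeR. There 0 of 7 had an unadjusted p under 0.05, against 8.65% of all genes. Between hippocampus and cortex the difference also passed for none in the 3 tools, with 0% of all genes past the threshold in edgeR. There 1 of 7 (Dcx) had an unadjusted p under 0.05, against 4.56% of all genes.

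Between 18 and 22 months, mice with PBS differed in no member past the threshold in any region in edgeR. In the hippocampus, Sox11 was at 51.9, 33.9 and 37.1 CPM at 22 months, against 46.9, 67.7, 61.5 and 53.5 CPM at 18 months, with 1 of the 22-month libraries inside the 18-month range. Its log2 fold change was -0.45 ± 0.171 with an adjusted p of 0.56. Sox11 was the only member of the 7 with an unadjusted p under 0.05 there, where 7.85% of all genes had one. DESeq2 and limma-voom called none of the 7 in the hippocampus, and 0% of all genes passed in edgeR. The cortex had 2 members with an unadjusted p under 0.05, where 10.9% of all genes had one. In edgeR 0.00533% of all genes passed the threshold there, and no member was called by DESeq2 or limma-voom. The cerebellum had 3 members with an unadjusted p under 0.05, where 15.2% of all genes had one, and 0.157% of all genes passed the threshold in edgeR. There limma-voom called 1 member and 292 of all 17185 genes, while DESeq2 called no member and 120 of all genes. Daily PBS for 7 days against no injection at 18 months changed no member in any region by edgeR, DESeq2 or limma-voom, and 0% of all genes passed in edgeR. Sox4 in the cerebellum, with a log2 fold change of 0.36 ± 0.157, had the only unadjusted p under 0.05 (0.028), where 3.32% of all genes had one.

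Young plasma changed none of the members past the threshold. Over 11 comparisons with PBS, in 3 regions, at 3 ages and in 2 experiments, 0 of 77 results for the 7 members passed in edgeR, where 0% of all genes passed in each of these comparisons. Among the 77, 5 had an unadjusted p under 0.05, where 1.68% to 9.84% of all genes had one over these comparisons. The comparison over both experiments uses the libraries of the 2 single ones again. Its 2 results among the 5, for Dcx and Neurod1, are thus not separate from theirs. DESeq2 and limma-voom also called none of the members. Of all genes, DESeq2 called 21 of 17126 in the hippocampus of experiment 2, 59 of 16812 over both experiments and 1 of 18070 in the hippocampus at 22 months, and limma-voom called 1 over both experiments. In the 18-month hippocampus of experiment 1, Dcx was at 16.9, 10.8, 13.5, 10.9 and 13.6 CPM with plasma, against 13.8, 21.1, 13.6 and 22.1 CPM with PBS. Among the PBS libraries, 2 stood above all plasma libraries and the other 2 lay within their range. In experiment 2, Dcx was at 13.2, 15.4, 12.7, 14.9 and 12.0 CPM with plasma, against 18.8, 16.6, 13.0 and 17.1 CPM with PBS, and 3 of the 4 PBS libraries lay above all plasma libraries.

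The log2 fold change of Dcx with plasma was -0.42 ± 0.280 in experiment 1 (adjusted p = 1.00) and -0.22 ± 0.130 in experiment 2 (adjusted p = 0.71). Over both experiments together it was -0.31 ± 0.112, with an unadjusted p of 0.010 and an adjusted p of 0.35. The value was 0.08 ± 0.332 at 22 months and -0.16 ± 0.304 after 24 days. Both 24-day groups held a library of low regional markers, PBS replicate 24 at 34.7 CPM of Dcx and plasma replicate 23 at 21.2 CPM. The other PBS libraries of 24 days held 20.7, 12.1 and 17.2 CPM and the other plasma libraries 16.8 and 18.7 CPM. Among mice that share the second title number, Dcx had -0.82 ± 0.474 at 18 months in experiment 1, with 2 plasma libraries and 1 PBS library, and -0.23 ± 0.458 at 22 months, with 3 plasma libraries and 1 PBS library. With a single PBS library these are values and not a test of plasma. The 2 PBS libraries of experiment 1 with the highest Dcx, replicates 5 and 11, had Prox1 at 44.4 and 44.5 CPM, the lowest of the group, against 75.0 and 79.6 CPM in the other 2. The part of this difference in the Dcx value was not tested. The fit with the dentate marker score as a covariate, on experiment 1 alone, called no member, but neither had the fit without it.

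Neurod1 was at 28.2, 30.2, 33.1, 28.6 and 27.6 CPM with plasma in experiment 2, against 25.1, 24.5, 22.4 and 27.4 CPM with PBS, and the groups did not overlap. Its log2 fold change was 0.29 ± 0.094 with an unadjusted p of 0.0078 and an adjusted p of 0.59, and 0% of all genes passed there. In experiment 1 the same gene was at 35.5, 29.5, 23.3, 31.2 and 29.6 CPM with plasma, against 30.6, 31.2, 29.8 and 22.4 CPM with PBS, which overlapped, and its log2 fold change was 0.09 ± 0.245. The remaining plasma results with an unadjusted p under 0.05 were Neurod1 over both experiments (0.20 ± 0.086), Dpysl3 in the hippocampus (0.27 ± 0.124) and Stmn1 in the cerebellum (0.22 ± 0.084), the last 2 after 24 days. In the hippocampus, both 24-day groups held a library of low regional markers. The test of the difference in plasma change between the 2 experiments called no member in edgeR, DESeq2 or limma-voom. There 0 of 7 had an unadjusted p under 0.05, against 3.1% of all genes.

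**Figure D3:**
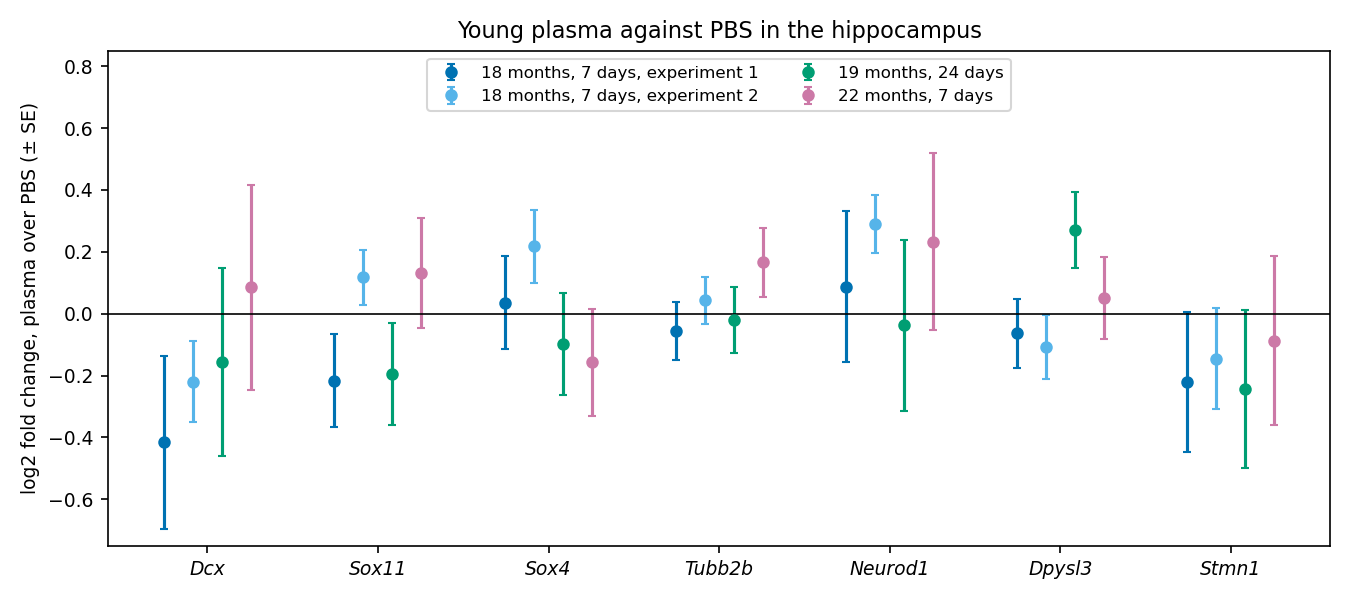
Log2 fold change of plasma over PBS for the 7 members tested in the hippocampus, in the 4 comparisons named in the legend. Points are fitted values and bars are SE, and the line at 0 marks no difference. No value passed the threshold, and Dcx runs from -0.42 to 0.08.

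Over the hippocampus libraries of experiment 1, Dcx and Stmn1 varied most closely with the amount of dentate marker transcripts in the library. Neurod1, Sox11 and Sox4 also varied with it when every library was included. The share of all genes that vary with it was not computed, so none of this is shown to be particular to the members. The dentate score is the mean log2 CPM of 10 genes of mature granule neurons, Prox1 and C1ql2 among them, none of which had a median under 1 CPM in any hippocampus group. Across the 29 libraries of experiment 1, Dcx was lower where the score was higher, with Pearson's r of -0.79 (permutation p = 1e-05, the smallest 100000 permutations can give, adjusted p = 7e-05 over 21 relations) and Spearman's rho of -0.64 (p = 2.8e-04, adjusted p = 0.0015). Without the 2 libraries farthest from the median score r was -0.60, and without the 4 of low regional markers it was -0.54. Within the groups it was -0.78, but over the 9 libraries of experiment 2 it was -0.10.

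Stmn1 followed the score more closely, with r of -0.86 and rho of -0.84 (permutation p = 1e-05 and adjusted p no higher than 1.05e-04 for both). Without the 2 farthest libraries r was -0.74, and in experiment 2 it was -0.63. Neurod1 had the opposite sign, with r of 0.74 (p = 5e-05, adjusted p = 2.62e-04) and rho of 0.55 (p = 0.0021, adjusted p = 0.0053), and r of 0.62 without the 2 farthest libraries. For Neurod1 r was 0.36 without the 4 libraries of low regional markers, and in experiment 2 it had the opposite sign, -0.17. Sox11 (r of -0.47, rho of -0.45, permutation p = 0.012 and 0.015) and Sox4 (r of -0.43, rho of -0.43, permutation p = 0.022 for both) were lower with a higher dentate score. The adjusted p of r was 0.022 for Sox11 and 0.033 for Sox4. Without the 2 farthest libraries r was -0.31 for Sox11 and -0.28 for Sox4, and without the 4 of low regional markers it was -0.28 for Sox11 and 0.00 for Sox4. The Sox4 relation thus rested on the libraries of low regional markers. In experiment 2 r was -0.54 for Sox11 and -0.27 for Sox4. Stmn1 was also higher with a higher score of 7 cortical neuron genes, with r of 0.73 and rho of 0.76 (permutation p = 1e-05 for both), r of 0.65 without the 2 farthest and 0.89 in experiment 2. With this score Dcx was higher too, with r of 0.58 (permutation, adjusted p = 0.0048), 0.34 without the 4 of low regional markers and 0.67 in experiment 2. Neurod1 was lower with it, with r of -0.68 (permutation, adjusted p = 0.0018), -0.61 without those 4 and -0.26 in experiment 2. The other members did not pass. The summed level of the cortical neuron list in the hippocampus was 256 to 424 CPM in the older libraries and 262 to 839 CPM in the young ones, the highest being young replicate 14. The part of the dissected tissue in these relations was not tested.

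**Figure D4:**
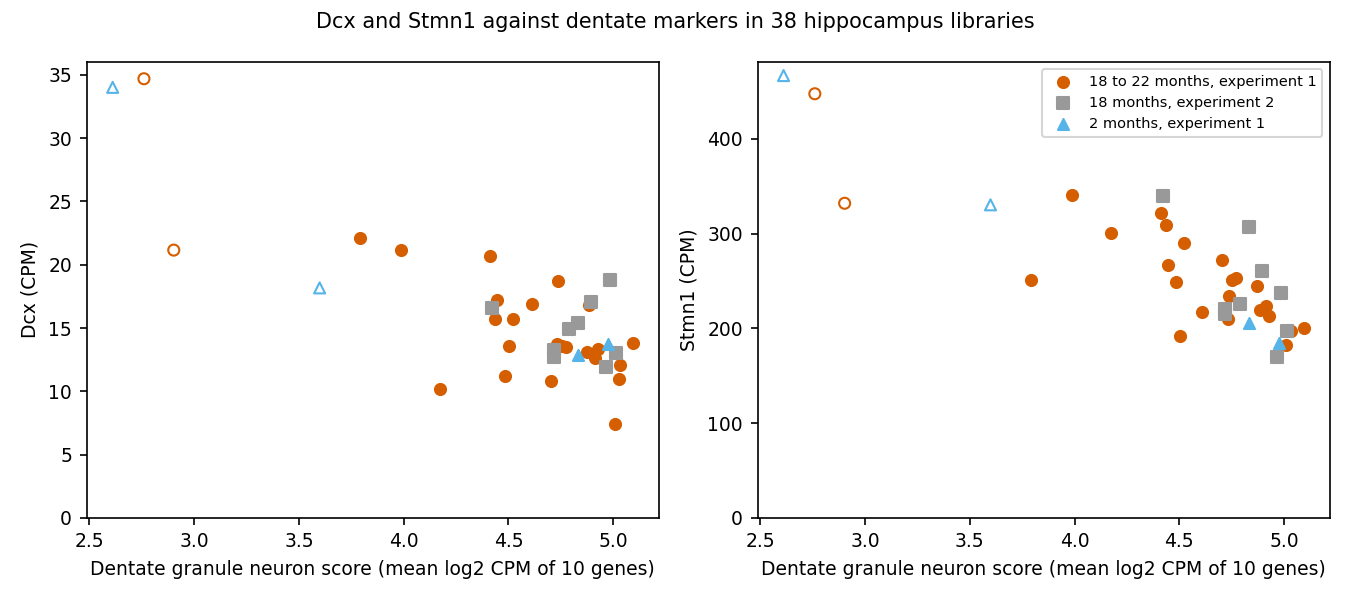
CPM of Dcx (left) and Stmn1 (right) against the dentate granule neuron score, the mean log2 CPM of 10 genes, in 38 hippocampus libraries. Symbols give age and experiment, and open symbols are libraries of low own-region markers. The 2 libraries with the highest values of both genes, 34.7 and 34.0 CPM for Dcx, have the lowest scores.

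Sox4 and Sox11 are known to be expressed outside neurons, and oligodendrocyte precursors are among the other cells of this tissue. Of 14 marker genes of these precursors, 1 fell in the older hippocampus (where 0.465% of all genes fell), 2 in the cortex (1.42%) and 4 in the cerebellum (4.89%) in edgeR, and none rose. Gpr17, a receptor of committed precursors, was at 17.1 to 31.2 CPM in the older hippocampus, with a median of 23.7, against 39.6 to 53.4 CPM in the young hippocampus, and the groups did not overlap. Its log2 fold change was -1.04 ± 0.077 in the hippocampus (adjusted p = 4.33e-09), -1.30 ± 0.127 in the cortex (adjusted p = 2.63e-07) and -1.67 ± 0.137 in the cerebellum (adjusted p = 4.91e-10). Without the libraries of low regional markers Gpr17 had -0.87 ± 0.090 in the hippocampus (adjusted p = 8.54e-06). Of the 14 genes, 9 were then lower and 5 higher there, with a median log2 value of -0.03. The summed level of the list overlapped, with 347 to 483 CPM in the older and 398 to 450 CPM in the young hippocampus. No gene of the list was at 0 in either age.

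Over the 29 hippocampus libraries the precursor score, the mean log2 CPM of the list, went with Sox4 (r of 0.57, rho of 0.58, permutation p = 0.0014 and 0.0012), Sox11 (r of 0.54, rho of 0.60, permutation p = 0.0026 and 7.7e-04) and Dpysl3 (r of 0.60, rho of 0.55, permutation p = 5.2e-04 and 0.0023). The adjusted p of r was 0.0041 for Sox4, 0.0060 for Sox11 and 0.0018 for Dpysl3, and without the 2 farthest libraries r was 0.57, 0.62 and 0.44 in that order. Within the groups r was 0.44 for Sox4, 0.27 for Sox11 and 0.44 for Dpysl3, and without the 4 libraries of low regional markers it was 0.39, 0.41 and 0.61 in that order. Stmn1 (r of 0.47, adjusted p = 0.021), Dcx (r of 0.46, adjusted p = 0.022) and Neurod1 (r of -0.46, adjusted p = 0.022) also passed with this score by permutation. Without the 4 libraries of low regional markers r was 0.21, 0.26 and -0.28 in that order. The share of all genes that vary with this score was not computed. In the 9 libraries of experiment 2, all of 18 months, r had the opposite sign, at -0.53 for Sox4, -0.61 for Sox11 and -0.67 for Dpysl3. It was also opposite there for Stmn1 (-0.78) and Dcx (-0.49), while Neurod1 kept its sign (-0.28). The part of these cells in the age result was not tested.

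Other genes of the neurogenic lineage gave a mixed picture in the hippocampus. Of 18 further immature neuron genes tested, among them the tubulin gene Tubb3, 0 passed between older and young mice in edgeR, where 0.791% of all genes did. Among the 18, 14 were lower and 4 higher, with a median log2 value of -0.11. Tubb3 itself was at 304 ± 29.2 CPM in the older (n = 25) and 322 ± 37.9 CPM in the young hippocampus (SD, n = 4), with a log2 fold change of -0.11 ± 0.066. In the cortex 2 of the 18 passed, both lower, where 1.42% of all genes were called lower, and without the libraries of low markers 1 did, also lower, where 2.06% of all genes passed in either direction. In the cerebellum 5 passed lower and 1 higher, where 4.89% of all genes were called lower and 4.47% higher. Of 13 neural stem cell genes, several of them shared with astrocytes, 1 fell in the hippocampus and none rose, where 0.465% of all genes were called lower and 0.327% higher. That gene was Nes, an intermediate filament of stem cells and vessel cells, with a log2 fold change of -0.66 ± 0.147 and an adjusted p of 0.029. Without the libraries of low regional markers Nes had -0.53 ± 0.177 with an adjusted p of 0.47, and Tubb3 had 0.02 ± 0.080.

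Of 14 cell cycle genes tested, 1 fell in the hippocampus and none rose, where 0.465% of all genes were called lower and 0.327% higher. Top2a, a topoisomerase of dividing cells, was at 0 to 0.930 CPM in the older hippocampus, with a median of 0.261, against 0.714 to 2.15 CPM in the young hippocampus, with a log2 fold change of -2.17 ± 0.406 and an adjusted p of 0.0096. It rests on 83 counts in the older and 50 in the young libraries, and without those of low regional markers Top2a had -2.53 ± 0.493 with an adjusted p of 0.031. Mki67, the gene of the Ki-67 protein of dividing cells, was at 1.58 ± 0.621 CPM in the older and 2.56 ± 1.06 CPM in the young hippocampus (SD), with an adjusted p of 0.37. In the cortex Mki67 had -1.55 ± 0.416 with an adjusted p of 0.041 in edgeR. Without the libraries of low regional markers it had -1.64 ± 0.464 there, with an adjusted p of 0.062. Of 13 cell cycle genes tested in the cortex without those libraries, 2 fell, where 2.06% of all genes passed in either direction. Only 1 of the 6 intermediate progenitor genes had enough counts to be tested in the hippocampus, and Eomes was not it. Dlx1, a gene of ventricular neuroblasts and forebrain interneurons, was at 16.7 to 34.0 CPM in the older and 25.8 to 28.6 CPM in the young hippocampus. No gene of these 5 lists passed between plasma and PBS in the hippocampus in edgeR, where 0% of all genes did, so this is not particular to the lists.

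The 8 genes did not move as 1 group across hippocampus libraries. Over the 21 pairs of the 7 members tested, Pearson's r of log2 CPM across the 29 libraries of experiment 1 lay between -0.65 and 0.73 (median 0.25). The highest pair was Dcx with Stmn1, at 0.73 and 0.69 in experiment 2, and Sox11 with Sox4 had 0.65 and 0.75 in experiment 2. The lowest was Neurod1 with Stmn1, at -0.65 in experiment 1 and 0.08 in experiment 2. These values are descriptions, since all genes of a library share its dissection and depth.

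Outside the members, the genes whose levels were most like those of Dcx over the 29 hippocampus libraries were Pdzrn3, Asic1, Doc2a, Atg16l2, Necab3 and Arpp21, out of 11494 genes with at least 5 CPM on average. Pearson's r with Dcx was 0.88 for Pdzrn3, 0.87 for Asic1 and for Doc2a, 0.86 for Atg16l2 and for Necab3, and 0.85 for Arpp21. The libraries of low regional markers were included, among them those of highest Dcx, at 34.7 and 34.0 CPM. No r without them was computed. Over the 9 libraries of experiment 2, r was 0.70 for Pdzrn3, 0.66 for Arpp21, 0.64 for Asic1, 0.62 for Doc2a, 0.42 for Necab3 and 0.09 for Atg16l2. All 6 had a lower mean level in the hippocampus than in the cortex, as did Dcx, with Pdzrn3 averaging 14.8 CPM over hippocampus and 42.8 CPM over cortex libraries.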

How the data were processed

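Bulk RNA of 3 brain regions was made into cDNA with Smart-Seq2 and into libraries with Nextera XT, which is unstranded, per the labels' protocols. Per the submitters' processing notes, Trim Galore 0.3.7, STAR 2.5.3a and DESeq2 were used with the GRCm38 build, and the counting tool and annotation are not given in the sources used here. The authors deposited raw read counts in 1 table (gene symbols by libraries, not normalized), and every column was matched to a sample by its title.

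Counts were fitted in edgeR 4.0.16 (R 4.3.3) with TMM factors, filterByExpr (minimum count 10, minimum total 15), 1 coefficient per group and the quasi-likelihood test. Each region used its 29 libraries of experiment 1, experiment 2 was fitted alone, both together used 18 libraries with experiment as a covariate, and regions were compared over 87 libraries. P values were adjusted by Benjamini-Hochberg across every gene tested in that model, and 0.05 was the threshold. CPM are counts over the library total, exon lengths are from GENCODE M21 on GRCm38, and scores use log2 CPM with a prior count of 2. Alternatives were DESeq2 1.42.0, limma-voom with quality weights (limma 3.58.1), other size factors, no filter, fewer libraries, marker scores as covariates and the mouse as a replicate block.

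Mouse numbers in the titles pair regions of the same animal. The median correlation of same-mouse deviations was 0.0896 between hippocampus and cortex and 0.0479 between hippocampus and cerebellum over 29 mice. Libraries of 1 group and region were compared in 136 pairs, and 0 were identical. Within a region each library is another mouse. Counts come from PCR-amplified cDNA without molecular identifiers, so depth covers counting error only. The members and lists were chosen with earlier results of these data known. Named beside the members were up to 4 genes per direction and list past the threshold, 8 followed markers and the 6 genes most like Dcx. The scripts were tested on simulated counts.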

Additional observations from a re-analysis of the deposited data

Results flagged for a closer look

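The change of Sox4 with age differed between the hippocampus and the cerebellum by -0.84 on the log2 scale, by a test of the difference itself in edgeR (adjusted p = 0.011). The difference did not pass without the libraries of low regional markers. It also did not pass without young mouse 14, where it was -0.78 with an adjusted p of 0.12.

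In 108 sets of 4 or 5 libraries of 1 group and member, 3 had a library far from the others, fewer than the 1 in 20 that chance gives. Sox11 in the young cerebellum was at 25.1 CPM in replicate 20, with the next library at 11.8 CPM. Neurod1 in the hippocampus with 7 days of PBS at 18 months in experiment 1 was at 22.4 CPM in replicate 11, with the next at 29.8 CPM, and that library also had low Prox1, at 44.5 CPM. Igfbpl1 in the cerebellum with 24 days of PBS was at 0.204 CPM in replicate 28, with the other 3 libraries at 0.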

How the results depend on the processing

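Over 32 comparisons, 24 of which called no member, no value that had passed reversed under the alternatives run. Members called for older against young hippocampus, 2, became 1 with limma-voom, 1 with the dentate score and 1 with the cortical score (an alternative chosen after seeing the data) as covariate, 0 without libraries under 2500000 counts, 0 without libraries of low markers, and 0 to 2 leaving out each library. Naive 18-month against young cerebellum, 0, became 1 with DESeq2, 2 with limma-voom and 0 to 1 leaving out each library. Cerebellum of 22 against 18 months with PBS, 0, became 1 with limma-voom and 2 with the compared groups alone. The hippocampus minus cerebellum difference in age change, 1, became 0 without low-marker libraries and 0 to 1 leaving out each naive mouse. Young hippocampus against cortex, 4, became 2 to 6 leaving out each young mouse. The cause was not tested. With the mouse as a replicate block, young hippocampus against cortex had 3 members called, without Dpysl3 (adjusted p = 0.053), and the counts of the other 7 comparisons between regions were the same. For comparisons between regions, leaving out each of the other 22 mice was not run. With no filter, Igfbpl1 had an adjusted p of 0.013 between older and young cortex, on 25 counts in all, and its fitted fold is not given since some groups were at 0. Genes under about 1 CPM, Igfbpl1 and Eomes in the hippocampus among them, are limited by depth.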

Other observations

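In the cerebellum, Eomes was at 6.84 to 35.1 CPM in the 25 older libraries, with a median of 19.3, against 28.8 to 39.7 CPM in the 4 young ones, with a log2 fold change of -0.93 ± 0.150 and an adjusted p of 5.81e-05 in edgeR. Gabra6, a receptor subunit of cerebellar granule neurons, averaged 407 ± 25.6 CPM in the older and 503 ± 33.4 CPM in the young cerebellum (SD, n = 25 and 4), and the groups did not overlap.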
